A study of Rattus norvegicus with 99 samples.

Results

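The interventricular septum (Spt) was compared with the right ventricular free wall (RV) inside the same sham-operated hearts. Of 99 RNA-seq libraries of LV, Spt and RV tissue in the series, 22 were used here, the Spt and the RV library of each of 11 animals. All were male rats of 1 cross, Wistar Kyoto dams mated with Lewis sires, operated without a constricting clip. The animals were 6 of group Sham-H (labelled 11 weeks old, 7 weeks after surgery), 2 of Sham-RF (27 weeks old, 21 weeks after surgery) and 3 of Sham-LF (30 weeks old, 24 weeks after surgery), the controls for compensated hypertrophy, right heart failure and left heart failure. No animal carried a transgene. The ages are those of the sample labels, and the study's text gives later ones. The comparison was selected on measured values in 1 respect, since a further sham (Sham-H replicate 6) was left out because its ventricle labels are uncertain. Over the 50 genes that differed most clearly between LV and RV in the other 11 animals, its difference had the opposite sign for 49 (median -0.624 log2 in the common direction), while the 11 animals used had the common sign for 49 or 50 genes each (medians 0.471 to 0.845). These values chose the animals and are no test of anything. Other labels are at odds with themselves. The tissue field of the RV samples reads left ventricle, while their titles and source names read RV, and the titles were followed. The description of the RV library of Sham-LF replicate 1 names another sham series than its title and its data column, and the title was again followed. Whole chamber tissue was sequenced, so that fewer cells of a type and less RNA per cell cannot be told apart in any value below.

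The ventricular septum is shared by both ventricles. It forms from both the left and the right ventricular primordium, carries the bundle branches of the conduction system beneath its endocardium, contracts mostly with the left ventricle, and has no outer surface. The free wall of the RV works against the low pressure of the pulmonary circulation and is covered by epicardium, whose outermost layer is a sheet of mesothelial cells. Iroquois (Irx) and T-box transcription factors pattern the ventricular wall and its conduction system, and a set of fetal and stretch-responsive genes, among them the natriuretic peptides and skeletal alpha-actin, is known to follow the mechanical load of cardiomyocytes.

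Between 12057180 and 22134595 reads were counted per library. Each library has a running number in its label, and these numbers form 3 separate blocks, taken here as library series. The RV libraries were in series 1 (2 animals), 2 (8 animals) or 3 (1 animal), and the Spt libraries in series 2 (2 animals) or 3 (9 animals). Both libraries of an animal were in the same series only in Sham-H replicates 5 and 7, and in the other 9 animals chamber and series changed together. The difference between Spt and RV also ran with gene length, and not in the same direction in all animals. Among the 3854 longest of the tested genes minus the 3854 shortest, the median log2 difference was 0.55 in Sham-H replicate 1, 0.43 in Sham-LF replicate 1 and 0.41 in Sham-H replicate 2, but -0.80 in Sham-H replicate 5 and -0.16 in Sham-H replicate 4. In the other 6 animals it lay between -0.06 and 0.26. Atrial transcripts stood apart in some libraries of both chambers. In RV, Myl7, the atrial myosin light chain, was at 575 CPM in Sham-H replicate 7 and at 532 CPM in Sham-LF replicate 3. The other 9 RV libraries were at 0.99 to 73.8 CPM. In Spt, Myl7 was at 227 and 236 CPM in Sham-H replicates 2 and 5 and at 243 CPM in Sham-LF replicate 1. The other Spt libraries were at 1.10 to 15.0 CPM. CPM here and below are counts per 1000000 counted reads, with library sizes scaled by trimmed means (TMM).

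**Figure D1:**
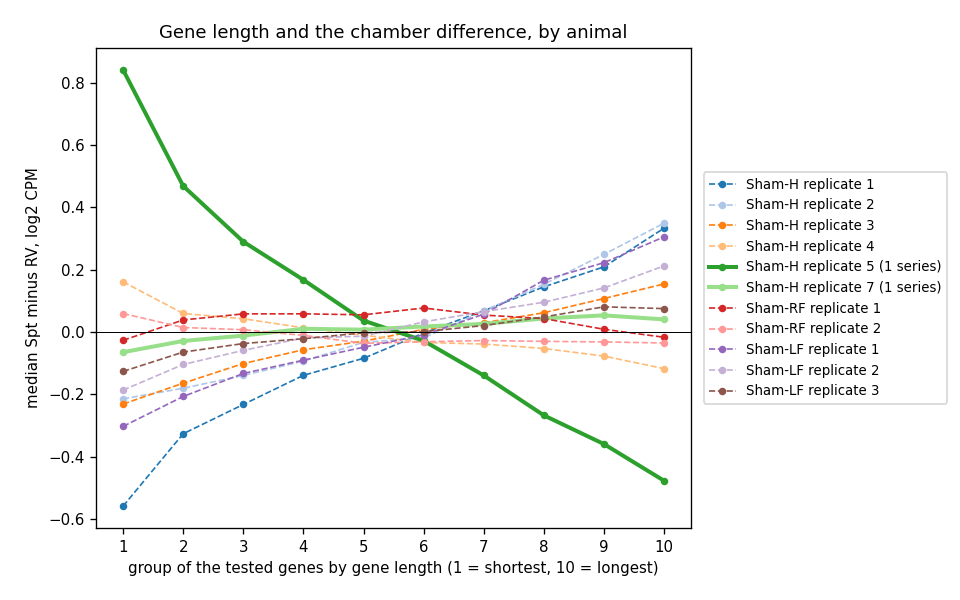
Median Spt minus RV difference (log2 CPM, y axis) in 10 equal groups of the tested genes ordered by gene length (x axis), 1 line per animal, with solid lines for the 2 animals whose libraries belong to 1 series. Sham-H replicate 5 falls from the shortest to the longest genes (3854 longest minus 3854 shortest genes, -0.80), while Sham-H replicate 1 rises most (0.55).

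In the paired fit, 1114 of 11561 tested genes differed between Spt and RV (edgeR quasi-likelihood test with animal as a block, Benjamini-Hochberg adjusted p below 0.05). Of these, 561 were higher in Spt (4.85% of the genes tested) and 553 were higher in RV (4.78%). Counts of called genes in the lists below are to be read beside these shares. Without Sham-H replicate 5 the count was 3200, of which 1113 were among the 1114. That animal had the strongest fall with gene length and was 1 of the 2 with both libraries in 1 series. Without Sham-H replicate 4, which had a smaller fall with gene length, the count was 830. The reason for the rise to 3200 was not tested. Adding library series to the block gave a fit with less power in simulated counts, as described under processing. In that fit 17 genes passed (0.147% of those tested), and all 17 were among the 1114. Among them were Irx2, Irx1, Penk, Ankrd23 and Pllp, higher in Spt, and Nkain4, H19, Atp6ap1l, Slc51a, Clic3, Fam180a, Prss12, Myrf, Itgb4, Ppl and Lsamp, higher in RV. These names were read from the fit with library series after its values were seen. A stricter set was therefore used to name genes: called in the paired fit, of the same sign with an unadjusted p below 0.05 in the fit with library series, and moving the same way in all 11 animals. It held 73 genes higher in Spt (0.631% of those tested) and 137 higher in RV (1.19%), and is called the stable set below. The 15 largest differences in each direction among stable genes with a mean of at least 1 CPM are the named genes, described beside genes of 24 lists of cell types and pathways.

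The largest stable differences towards Spt were in transcription factors. Irx2 was at 10.7, 13.4 and 23.2 CPM (lowest, median and highest) in the 11 Spt libraries and at 0.75, 1.27 and 2.88 CPM in the 11 RV libraries, a 10.3-fold difference (log2 3.36 ± 0.16 SE, edgeR adjusted p = 1.23e-07). Irx1 was at 5.82, 9.00 and 16.4 CPM in Spt and at 0.58, 1.03 and 2.59 CPM in RV, 8.12-fold (log2 3.02 ± 0.16 SE, edgeR adjusted p = 2.757e-07). For both genes the lowest Spt library was above the highest RV library. With library series in the fit the log2 differences of Irx2 and Irx1 were 3.33 and 2.71, with adjusted p of 0.0009689 and 0.001806 by edgeR.

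The other Iroquois genes did not share this size. Irx1, Irx2 and Irx4 are neighbours on chromosome 1 of the RefSeq annotation (GRCr8), with no protein-coding gene between them, and Irx3 and Irx5 are neighbours on chromosome 19. Irx4, a factor of the ventricular myocardium, differed the opposite way from its neighbours, at 17.9 to 30.8 CPM in Spt and 26.0 to 35.5 CPM in RV (log2 -0.35 ± 0.08 SE, edgeR adjusted p = 0.01092), and was higher in RV in all 11 animals. Irx5, which sets the gradient of repolarising potassium current across the ventricular wall, was higher in Spt by log2 0.60 ± 0.13 SE (edgeR adjusted p = 0.01139). Irx3, a factor of the His-Purkinje network, had a log2 difference of 0.29 ± 0.09 SE that did not pass (edgeR adjusted p = 0.07157). Of the 20 tested chamber patterning factors, 5 were higher in Spt, 3 were higher in RV and 12 were not called, and the list's median log2 difference was 0.11 beside 0.00 over all genes tested (0.12 with an offset for gene length, but -0.11 with library series in the fit). The remaining calls were Tbx2 and Tbx3, repressors of working myocardium, at log2 0.45 and 0.80 towards Spt, and Hey2, a Notch target of compact myocardium, and Gata6 at -0.49 and -0.26. The sign of Tbx3 turned with library series in the fit (log2 -0.14), and that of the others did not. In 6 banded animals whose libraries share a series, described further below, Tbx3 was higher in Spt in 6 of 6 (log2 0.56 ± 0.09 SE, edgeR adjusted p = 0.01347).

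Among genes of the conduction system, Hopx stood out. This homeodomain-only factor, expressed in cardiomyocytes and the conduction system, was at 80.4, 122 and 178 CPM in Spt and 44.2, 58.0 and 78.4 CPM in RV without overlap (log2 1.10 ± 0.12 SE, edgeR adjusted p = 0.0001241). Of 21 tested genes of the ventricular conduction list, 2 were higher in Spt (Hopx and Tbx3) and 2 were higher in RV (Id2 at log2 -0.40 and Cntn2 at -0.69). Over all genes tested the shares were 4.85% and 4.78%. Gja5, the connexin of the fast conducting fibres, was at 17.6 to 44.9 CPM in Spt and 15.2 to 32.6 CPM in RV, a log2 difference of 0.17 ± 0.12 SE that did not pass (edgeR adjusted p = 0.4168). Scn3b, a sodium channel beta subunit, was higher in Spt in all 11 animals at a low level, with medians of 2.90 and 1.29 CPM (log2 1.12 ± 0.14 SE).

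**Figure D2:**
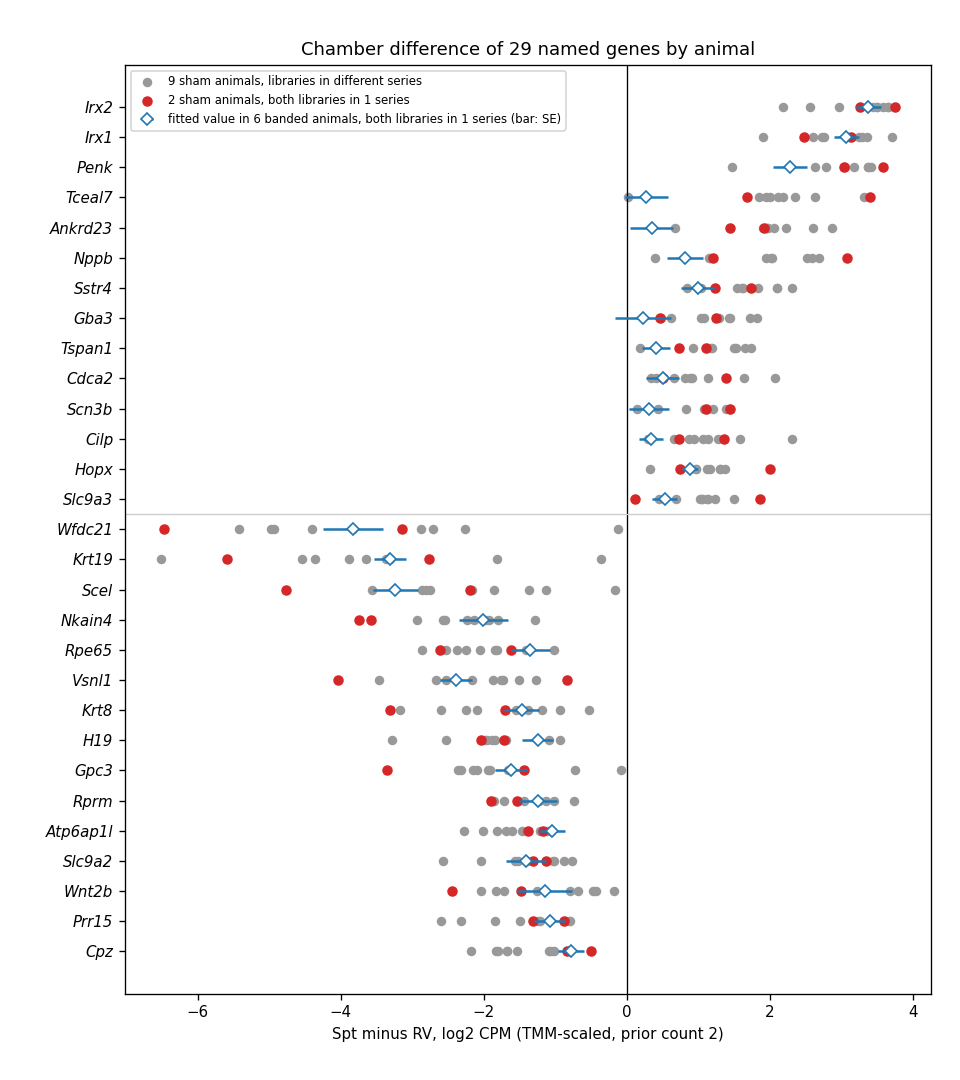
Spt minus RV difference (log2 CPM, x axis) of 29 of the 30 named genes (y axis), with 1 grey point for each of 9 sham animals, red points for the 2 sham animals whose libraries belong to 1 series, and blue diamonds with SE bars for the fit to 6 banded animals. By the naming rule all sham points lie on 1 side of 0; the diamonds lie on the same side for the genes shown, near 0 for Tceal7, Gba3, Scn3b and Ankrd23.

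Genes that respond to load and stretch were higher in the septum as a list. Of 16 tested genes of the hypertrophy and stretch list, 8 were called and all 8 were higher in Spt, none was called higher in RV, and the list's median log2 difference was 0.60 (0.55 with library series, 0.58 with an offset for gene length, 0.62 without Sham-H replicate 5). All 8 were in the stable set. Part of this list was drawn up with banding responses in this series known, so its direction is not independent of these data. Penk, the precursor of the enkephalin peptides, led it at 258, 335 and 635 CPM in Spt and 28.7, 37.1 and 93.0 CPM in RV, 8.02-fold and without overlap (log2 3.00 ± 0.17 SE, edgeR adjusted p = 3.086e-07, and log2 2.95 with an adjusted p of 0.001806 with library series). Ankrd23, a titin-binding ankyrin repeat protein of the stretch sensing complex of the I band, was at 57.2, 81.0 and 159 CPM in Spt and 16.6, 21.5 and 35.8 CPM in RV (log2 1.97 ± 0.16 SE, edgeR adjusted p = 1.653e-05). Nppb, which encodes B-type natriuretic peptide, was at 281, 372 and 478 CPM in Spt and 45.5, 86.4 and 314 CPM in RV (log2 1.89 ± 0.23 SE, edgeR adjusted p = 0.0003388). Its ranges overlapped only through the RV library of Sham-H replicate 1, the second highest RV library being at 189 CPM. Tceal7, a protein related to transcription elongation factors, was at a median of 31.6 CPM in Spt and 6.25 CPM in RV (log2 2.16 ± 0.25 SE, edgeR adjusted p = 0.000258), and in Sham-H replicate 1 both chambers were level (log2 0.01).

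The sarcomeric members of the list differed less. Acta1, skeletal alpha-actin, was at 1077, 1335 and 1492 CPM in Spt and 423, 676 and 1440 CPM in RV (log2 0.95 ± 0.11 SE, edgeR adjusted p = 0.0003452), and its reads may in part be shared with the closely similar other actins. Myh7, the slow beta myosin heavy chain, was at a median of 7364 CPM in Spt and 4180 CPM in RV (log2 0.75 ± 0.12 SE, edgeR adjusted p = 0.0016). Rcan1, a calcineurin feedback regulator, and Xirp2, of the intercalated disc, were higher in Spt by log2 0.68 and 0.51. The RV of Sham-H replicate 1 was the highest of all RV libraries for Penk, Nppb, Acta1 and Myh7, the last at 10250 CPM. Of the 8 members that were not called, Nppa, atrial natriuretic peptide, had the largest difference at log2 1.78 ± 0.57 SE (edgeR adjusted p = 0.06557). It reached 1889 and 1202 CPM in the 2 RV libraries with high Myl7, against 47.2 to 448 CPM in the other 9 RV libraries and 219 to 822 CPM in Spt. Of 16 tested contractile genes Acta1 and Myh7 were called, both towards Spt, beside 4.85% of all genes tested, and the list's median was -0.01 (0.22 with library series).

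The promoters of the load-responsive genes called higher in Spt are shown as a description. Their common direction is the rule by which they were picked. Of the 8 called genes of the list, 7 had a promoter in the RefSeq table (build GRCr8). The motifs searched in the 250 bases before the annotated start, on both strands and chosen with the called genes known, were the M-CAT element CATTCC bound by TEAD factors, the GATA element AGATAA, the cyclic AMP element TGACGTCA, the CArG box and the MEF2 site. M-CAT was in 4 of the 7 promoters (12.1% of all 33469 promoters hold it), the GATA element in that of Nppb (10.3% of all promoters), the cyclic AMP element in that of Rcan1 (1.59%), the CArG box in that of Acta1 (1.5%) and the MEF2 site in that of Xirp2 (0.523%). A match of letters is a description and not a measured binding site. The promoters with M-CAT are given 5′ to 3′ with that element, in either orientation, in capitals:
Nppb, chr5:163699758-163700007, plus strand: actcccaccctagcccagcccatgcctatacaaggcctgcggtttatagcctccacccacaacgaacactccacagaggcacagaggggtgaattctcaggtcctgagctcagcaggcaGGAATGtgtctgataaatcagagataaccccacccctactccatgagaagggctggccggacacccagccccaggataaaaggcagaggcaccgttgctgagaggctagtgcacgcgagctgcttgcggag
Acta1, chr19:68784195-68784444, minus strand: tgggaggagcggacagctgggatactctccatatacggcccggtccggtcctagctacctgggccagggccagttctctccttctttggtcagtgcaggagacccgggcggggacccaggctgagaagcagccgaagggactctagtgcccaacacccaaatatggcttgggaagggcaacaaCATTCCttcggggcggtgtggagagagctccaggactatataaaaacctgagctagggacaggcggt
Ankrd23, chr9:46274511-46274760, minus strand: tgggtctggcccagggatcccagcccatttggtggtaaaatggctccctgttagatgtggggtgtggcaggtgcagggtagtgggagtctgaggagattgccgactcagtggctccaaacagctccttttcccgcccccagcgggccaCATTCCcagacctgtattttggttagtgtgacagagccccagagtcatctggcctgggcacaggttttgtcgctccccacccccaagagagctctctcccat
Tceal7, chrX:104019834-104020083, plus strand: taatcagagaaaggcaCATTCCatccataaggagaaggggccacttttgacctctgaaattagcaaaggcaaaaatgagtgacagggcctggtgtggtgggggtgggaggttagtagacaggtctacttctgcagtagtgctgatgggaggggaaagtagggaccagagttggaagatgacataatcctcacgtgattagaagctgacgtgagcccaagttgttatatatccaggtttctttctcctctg
The capitals lie 131 to 126 bases before the start in Nppb, where the GATA element follows at 110 to 105, and 67 to 62 bases before it in Acta1.

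The other named genes towards Spt were of lower level. Cilp, a matrix protein of fibroblasts, was at 8.65, 10.8 and 22.9 CPM in Spt and 2.81, 5.87 and 8.53 CPM in RV without overlap (log2 1.11 ± 0.15 SE, edgeR adjusted p = 0.0005828). Col8a1, a short-chain collagen, was likewise in the stable set (log2 0.70 ± 0.11 SE), although the fibroblast and matrix list as a whole did not lean to Spt: 3 of its 24 tested genes were higher in Spt, 2 (Col3a1 and Pdgfra) were higher in RV, and the median was -0.08. Sstr4, a somatostatin receptor, was higher in Spt at medians of 1.33 and 0.35 CPM without overlap (log2 1.88 ± 0.18 SE). Slc9a3, a sodium-proton exchanger, was at medians of 4.49 and 2.00 CPM (log2 1.05 ± 0.15 SE), and Gba3, Tspan1 and Cdca2 were below 2.31 CPM in every library (log2 1.34, 1.31 and 1.13).

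Towards the RV, mesothelial genes had the largest differences. Krt19, an epithelial keratin of mesothelium, was at 1.37, 8.20 and 24.7 CPM in RV and 0.00, 0.40 and 1.99 CPM in Spt (log2 -3.67 ± 0.50 SE, edgeR adjusted p = 0.0005828). It was higher in RV in every animal, and the ranges overlapped because the RV of Sham-H replicate 3 was low. Msln, which encodes mesothelin, was at 2.61, 24.2 and 69.7 CPM in RV and 0.00, 0.86 and 4.30 CPM in Spt (log2 -4.35 ± 0.61 SE, edgeR adjusted p = 0.0007302). Upk1b, a uroplakin of the mesothelium, was at 0.59, 4.27 and 12.7 CPM in RV and 0.07, 0.18 and 1.06 CPM in Spt (log2 -4.01 ± 0.50 SE, edgeR adjusted p = 0.0004493). Both were higher in RV in 10 of 11 animals, the exception being Sham-LF replicate 1, whose differences were log2 0.33 for Msln and 0.73 for Upk1b. Krt8 and Krt18, which pair with one another in simple epithelia, were higher in RV in all animals (log2 -2.06 and -1.86).

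Of the 14 tested mesothelial and epicardial genes, 10 were higher in RV, 1 was higher in Spt and 3 were not called, with a median log2 difference of -0.80 (-1.14 with library series, -0.79 with the length offset). The summed level of the list was 283 to 424 CPM in RV and 204 to 310 CPM in Spt and was higher in RV in 11 of 11 animals. Its largest member was the abundant Aldh1a1, at 176 to 231 CPM in RV and 133 to 228 CPM in Spt, so the sum is no measure of mesothelium alone. The exception in direction was Wt1, an epicardial factor that coronary endothelium also makes, at medians of 25.9 CPM in Spt and 17.8 CPM in RV (log2 0.52 ± 0.11 SE, edgeR adjusted p = 0.01173). Aldh1a2, the retinoic acid synthesising enzyme of the epicardium, was higher in RV by a log2 difference of -0.86 ± 0.17 SE, at 3.29 to 9.59 CPM in RV and 2.03 to 3.99 CPM in Spt. Rspo1 and Gpm6a, of the epicardial layer, were in the stable set at log2 -0.74 and -0.99. The defining markers Msln, Upk1b and Krt19 were at or below 4.30 CPM in every Spt library.

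Wfdc21, Scel and Nkain4 were the other named genes with the largest RV excess. Wfdc21, a secreted whey acidic protein, was at 0.99, 5.74 and 18.2 CPM in RV and 0.05, 0.23 and 1.56 CPM in Spt (log2 -3.91 ± 0.54 SE, edgeR adjusted p = 0.000664). Scel, sciellin of stratified epithelia, was at 0.19 to 4.29 CPM in RV and 0.00 to 0.25 CPM in Spt. Nkain4, a sodium pump interacting protein, was at 1.06, 3.92 and 6.77 CPM in RV and 0.16, 0.54 and 1.49 CPM in Spt, with a log2 difference of -2.61 ± 0.22 SE in the paired fit and of -3.89 ± 0.32 SE with library series, where its edgeR adjusted p of 0.0005225 was the lowest of all genes. None of these genes was on a list, and their levels in RV, like those of Krt19 and Msln, were highest or second highest in Sham-H replicate 7.

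The remaining named genes towards the RV had varied roles. H19, an imprinted noncoding RNA that is abundant in fetal muscle, was at 60.7, 72.5 and 133 CPM in RV and 12.5, 25.3 and 36.9 CPM in Spt without overlap (log2 -1.90 ± 0.17 SE, edgeR adjusted p = 3.591e-05), and its log2 difference was -1.97 with library series (edgeR adjusted p = 0.01999). Gpc3, a glypican that restrains growth, was at 3.62, 8.98 and 19.9 CPM in RV and 1.43, 2.35 and 3.44 CPM in Spt without overlap (log2 -1.89 ± 0.24 SE, edgeR adjusted p = 0.0004972). Rprm, a cell cycle inhibitor, and Atp6ap1l, a relative of a proton pump accessory subunit, also had no overlap (log2 -1.64 and -1.55). Atp6ap1l was at 8.31, 13.6 and 19.2 CPM in RV and 3.61, 4.65 and 6.48 CPM in Spt. Cpz, a carboxypeptidase, and Wnt2b, a Wnt ligand, were higher in RV by log2 differences of -1.44 and -1.49, and Vsnl1, a neuronal calcium sensor, by -2.25 ± 0.29 SE, at medians of 3.68 CPM in RV and 0.60 CPM in Spt. Rpe65, Slc9a2 and Prr15 complete the named genes at log2 -2.41, -1.54 and -1.48. Of the 30 named genes, 8 of 15 towards Spt and 6 of 15 towards RV had no overlap between the 11 Spt and the 11 RV libraries. The naming rule itself favours a lack of overlap. The share over all genes tested is not given, so the count describes these genes only.

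Potassium channel genes leaned to the RV. Of 17 tested, 5 were higher in RV, none was called higher in Spt and 12 were not called, with a median log2 difference of -0.18 (-0.17 with library series). Kcnd2 and Kcnd3, both pore subunits of the transient outward current, were in the stable set. Kcnd2 was at 14.0, 18.9 and 28.0 CPM in RV and 5.46, 9.57 and 14.2 CPM in Spt, so that only the highest Spt and the lowest RV library overlapped (log2 -0.99 ± 0.11 SE, edgeR adjusted p = 0.000162). Kcnd3 was at 19.6, 25.1 and 33.6 CPM in RV and 8.43, 15.5 and 18.8 CPM in Spt without overlap (log2 -0.74 ± 0.09 SE, edgeR adjusted p = 0.0004318). Kcnk2, a stretch-activated leak channel, Kcnj5, a subunit of the acetylcholine-gated channel, and Kcnn2, a calcium-activated channel, followed at log2 -0.54, -0.44 and -0.60.

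The linings of the vessels and of the cavities differed. Of 12 tested endocardial genes, 7 were higher in RV and none was called higher in Spt (median log2 -0.72, and -0.69 with library series). In the 6 banded animals 2 of 11 were higher in RV, none was called higher in Spt, and the median was -0.32. Plvap, the diaphragm protein of fenestrated endothelium, was at 6.94, 11.2 and 20.5 CPM in RV and 3.22, 4.68 and 7.20 CPM in Spt (log2 -1.42 ± 0.12 SE, edgeR adjusted p = 2.474e-05). Vwf, von Willebrand factor, was at 206, 329 and 573 CPM in RV and 157, 200 and 287 CPM in Spt (log2 -0.67 ± 0.08 SE, edgeR adjusted p = 0.0002379). Edn1 and Nrg1, the endocardial ligands endothelin and neuregulin, were higher in RV at low levels (log2 -0.77 and -1.32), and the summed endocardial level was higher in RV in 11 of 11 animals. The general endothelial list went the other way, with 5 of 12 genes higher in Spt, among them the receptors Tie1, Kdr, Flt1 and Tek at log2 0.53, 0.48, 0.46 and 0.34, and 1 (Vwf, which is on both lists) higher in RV. With library series in the fit these 4 receptors were at log2 0.12, 0.05, 0.04 and 0.04, and none of the 5 endothelial genes higher in Spt was in the stable set. In the 6 banded animals, whose libraries share a series, 4 of 12 endothelial genes were called higher in Spt and none higher in RV (median log2 0.25). Tie1, Flt1 and Tek were higher in Spt in 6 of 6 of them (log2 0.38, 0.29 and 0.26, all past the threshold), and Kdr in 5 of 6 (log2 0.28 ± 0.08 SE, edgeR adjusted p = 0.06678).

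Genes of Schwann cells and neurons were higher in RV in 6 of 16 tested and none was called higher in Spt (median log2 -0.29). Sox10, the glial lineage factor, was at 3.93, 6.39 and 7.39 CPM in RV and 2.19, 3.75 and 7.35 CPM in Spt, and was higher in RV in all 11 animals although the ranges overlapped (log2 -0.58 ± 0.12 SE, edgeR adjusted p = 0.01008). S100b, a calcium-binding protein of glia, and Scn7a, a sodium channel of Schwann cells and sensory neurons, had log2 differences of -0.87 and -0.68. By sign alone, 12 of the 16 were towards RV and 4 towards Spt. The neuronal members Dbh, Uchl1 and Gap43 were mixed in sign over the 11 animals, at log2 -0.24 to 0.88, -0.75 to 1.52 and -1.68 to 0.96. In the 6 banded animals Dbh was at log2 0.24 to 0.43. The summed level of the list was 217 to 330 CPM in RV and 180 to 282 CPM in Spt, higher in RV in 11 of 11 animals. Of 10 tested adipocyte genes, 3 were higher in RV and 7 were not called (median log2 -0.87). The 3 were Scd1 and Adipoq (log2 -2.53 and -1.83) and Car3, each higher in RV in 10 of 11 animals. Adipoq was at 7.23 CPM in the RV of Sham-RF replicate 2 and at most 2.38 CPM in every other library. The summed level of the list, which includes the abundant Fabp4, was 1013 to 2328 CPM in Spt and 849 to 1691 CPM in RV. That sum was higher in Spt in 9 of 11 animals. Of 10 tested lymphocyte genes Cd3g and Cd2 were higher in RV (log2 -0.97 and -0.46), beside 4.78% of all genes tested, and of 14 macrophage genes none was called.

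No gene of 27 for fatty acid uptake and oxidation, of 54 for respiratory chain subunits or of 16 for calcium cycling was called. The respiratory chain transcripts, the median of which lies at the 4.5th percentile of gene length, had a median log2 difference of -0.07 in the paired fit, of 0.29 with library series and of -0.18 without Sham-H replicate 5, so that no direction can be given. Of 24 genes for glucose uptake and glycolysis, 3 were higher in RV and 1 was higher in Spt. Eno3, the muscle enolase, was at 757, 928 and 974 CPM in RV and 518, 584 and 700 CPM in Spt without overlap (log2 -0.60 ± 0.06 SE, edgeR adjusted p = 7.765e-05). Pfkfb1 and Slc2a4, a regulator of glycolysis and the insulin-responsive glucose transporter, were at log2 -0.73 and -0.24, and Pfkfb2 at 0.32. No heat shock or circadian clock gene was called, and of 26 immediate early genes Jun and Btg2 were higher in Spt (log2 0.44 and 0.30). Atrial genes gave 1 call of 12, Dkk3 (log2 -0.67). Smooth muscle and pericyte genes gave 2 calls towards Spt and 1 towards RV of 13. Valve, tendon and cartilage genes gave 3 and 1 of 8, and erythroid genes 1 towards Spt of 6. Beside these small counts, 4.85% of all genes tested were higher in Spt and 4.78% were higher in RV.

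**Figure D3:**
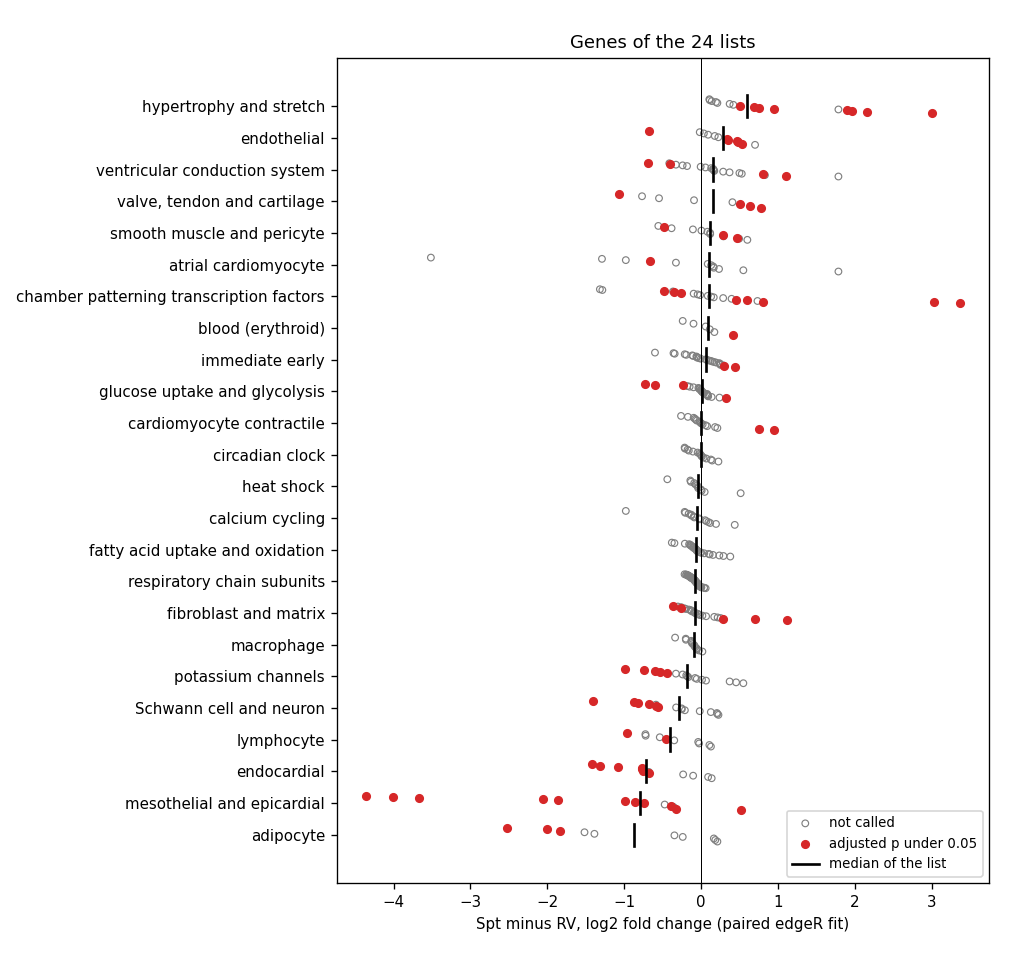
Log2 fold change of Spt over RV (x axis, paired edgeR fit) for every tested gene of the 24 lists (y axis, ordered by median), with filled points for genes called and black bars for list medians. The hypertrophy and stretch list lies above 0 throughout (median 0.60), and the mesothelial (-0.80), endocardial (-0.72) and Schwann cell (-0.29) lists lie mostly below it.

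The LV of the same animals was set beside both chambers. It was fitted with Spt and RV of the 11 animals in 1 model, so that the values below share libraries. LV and RV of each animal were in the same library series, while Spt was in another series in 9 animals. The model had no term for series. Differences of Spt from LV therefore cannot be told apart from series in those 9 animals. Irx1, Irx2 and Penk were highest in Spt, intermediate in LV and lowest in RV. Irx2 had medians of 13.4, 5.08 and 1.27 CPM in Spt, LV and RV, with log2 differences of 1.52 for Spt minus LV (edgeR adjusted p = 2.989e-06) and 1.84 for LV minus RV (edgeR adjusted p = 2.002e-07). Penk had medians of 335, 138 and 37.1 CPM, with log2 differences of 1.40 and 1.59. By contrast, Nppb had medians of 372 CPM in Spt and 360 CPM in LV, a difference that did not pass the test (log2 0.15 ± 0.19 SE, edgeR adjusted p = 0.7399), and Acta1 (log2 0.03 for Spt minus LV), Rcan1 (0.02) and Hopx (0.27) had small Spt minus LV differences, while for Ankrd23 Spt minus LV was 0.48 (edgeR adjusted p = 0.0512). H19 had medians of 25.3 CPM in Spt, 29.7 CPM in LV and 72.5 CPM in RV. Krt19 was at a median of 2.03 CPM in LV, between Spt and RV (log2 -1.74 for Spt minus LV, edgeR adjusted p = 0.05312, and -1.83 for LV minus RV, edgeR adjusted p = 0.003795). Rprm and Slc9a2 were low in Spt alone, with LV medians of 1.14 and 1.74 CPM beside RV medians of 1.26 and 1.51 CPM (log2 -0.23 and 0.11 for LV minus RV, neither called), and Spt medians of 0.41 and 0.56 CPM.

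**Figure D4:**
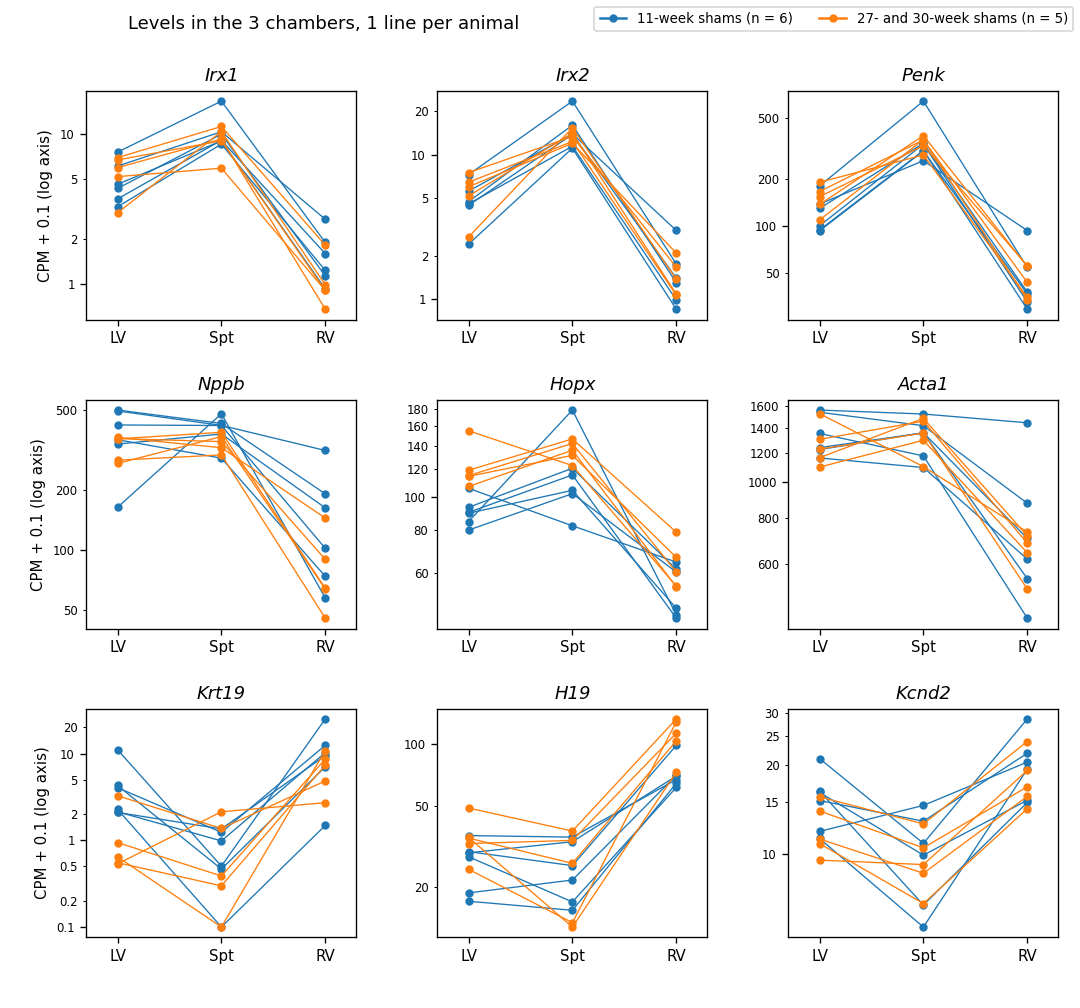
Level (CPM + 0.1, log axis) of 9 genes in LV, Spt and RV, 1 line per sham animal, blue for the 6 younger and orange for the 5 older animals. Irx1, Irx2 and Penk peak in Spt, Nppb and Acta1 are similar in LV and Spt and lower in RV, Krt19 and Kcnd2 are lowest in Spt in most animals, and H19 is highest in RV.

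Animals not used above offered a check free of library series. In the compensated stage, 3 rats with a pulmonary artery band (PAB-H replicates 5 to 7) and 3 with an aortic band (AOB-H replicates 5 to 7) had both libraries in the same series. Their paired fit called 289 of 11444 genes higher in Spt (2.53%) and 248 higher in RV (2.17%). All 30 named genes had the same sign as in shams, and 20 of them were called, 6 of the 15 towards Spt and 14 of the 15 towards RV. Of the stable genes measured in both, 66 of 72 towards Spt (91.7%) and 125 of 132 towards RV (94.7%) had the same sign, beside 66.6% of all genes tested in both. Among all genes called in the paired fit, stable or not, the shares were similar. They were 531 of 559 towards Spt (95%) and 491 of 536 towards RV (91.6%). Irx2 and Irx1 were higher in Spt in 6 of 6 banded animals by log2 3.38 ± 0.17 and 3.07 ± 0.17 (SE), and Penk by 2.28 ± 0.24 (SE), with edgeR adjusted p of 1.144e-05 for both Irx genes and 0.0009301 for Penk. Krt19, Upk1b and Msln were lower in Spt in 6 of 6 by -3.31, -3.86 and -3.76, and Kcnd2, Kcnd3 and H19 by -1.02, -0.68 and -1.25, all past the threshold. Hopx was higher in Spt in 6 of 6 animals (log2 0.89 ± 0.11 SE). Among the lists described above, 7 of 13 mesothelial and epicardial genes were called higher in RV (median log2 -0.82), 6 of 16 Schwann cell and neuron genes (-0.25) and 2 of 17 potassium channel genes (-0.25). Of the adipocyte genes 5 could be tested, 1 was higher in RV, and the median of 0.21 was opposite in sign to that of the shams.

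The list of load-responsive genes had a smaller median difference in the banded animals, a contrast that did not pass for any single gene. Of the 16 genes of the list only Penk was called there, and the list's median was 0.14. Ankrd23 had a log2 difference of 0.35 ± 0.30 SE, Tceal7 of 0.27 ± 0.30 SE, Nppb of 0.81 ± 0.25 SE and Acta1 of 0.15 ± 0.25 SE. The 6 animals were not alike: Acta1 was at log2 -1.50 and Ankrd23 at -1.65 in PAB-H replicate 5, and at 0.77 and 0.94 in PAB-H replicate 6. Ankrd23 was at 1.05 in PAB-H replicate 7 and at 0.32, 0.99 and 0.47 in AOB-H replicates 5 to 7. The difference itself between banded and sham animals, tested in 1 fit of all 17, passed for 0 genes (edgeR, adjusted p below 0.05, with 596 genes at an unadjusted p below 0.05, and again 0 with library series). For Ankrd23 it was -1.58 ± 0.35 SE (edgeR adjusted p = 0.3117), for Xirp2 -0.64 ± 0.14 SE (adjusted p likewise 0.3117), for Penk -0.71 ± 0.30 SE (0.875) and for Irx1 0.08 ± 0.26 SE (0.9803).

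**Figure D5:**
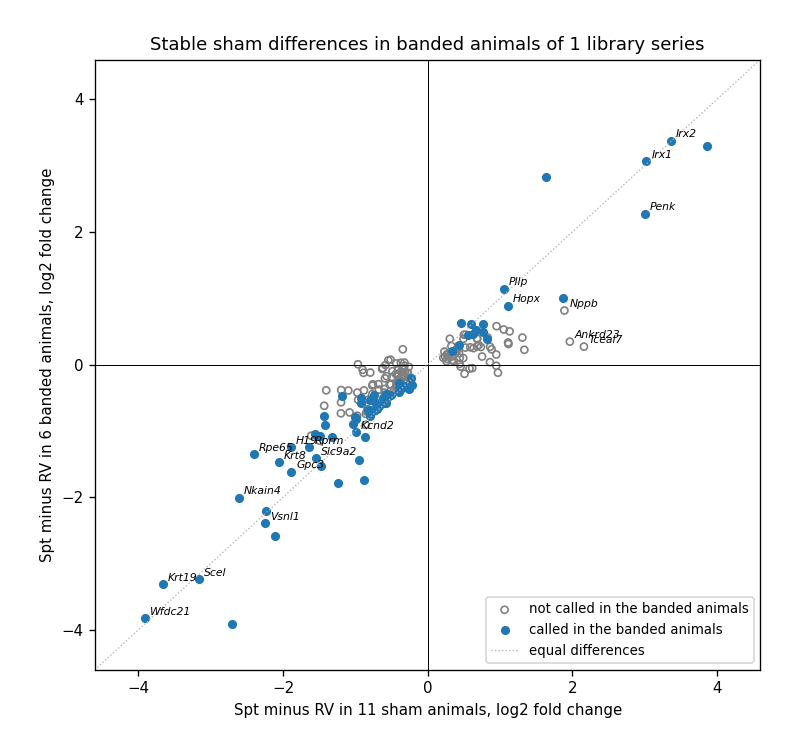
Log2 fold change of Spt over RV in the 11 sham animals (x axis) and in 6 banded animals whose libraries share a series (y axis), for the stable genes measured in both, with filled points for genes called in the banded animals and a dotted line of equal differences. Irx1, Irx2, Krt19 and Wfdc21 lie near the line, and Ankrd23 and Tceal7 lie near 0 on the y axis.

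The chamber difference was also compared between ages. No gene passed the test for a different Spt minus RV difference between the 6 shams of 11 weeks and the 5 of 27 or 30 weeks (edgeR, 0 of 11561 at an adjusted p below 0.05, and 187 at an unadjusted p below 0.05, with 0 by DESeq2). The adjusted p of the interaction was 0.9999 for each of the 30 named genes and does not rank them. Among them Cpz and H19 had the lowest unadjusted p, that of Cpz below 0.05 and that of H19 just above it, with interactions of log2 -0.64 and -0.65 (older minus younger), both towards a larger RV excess in the older animals. The ages differed in how many genes passed on their own, at 23 in the 6 younger and 1082 in the 5 older animals, and the 5 older animals all had RV in series 2 and Spt in series 3, as did 2 of the 6 younger ones.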

How the data were processed

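The authors trimmed, aligned and counted the 75-base single-end reads of directional poly(A) libraries (Trim Galore, STAR and featureCounts per the labels, on a rat annotation of build Rnor6.0 per the study's methods), and whether counting used strand is not given in the sources used here. The deposited table gives read counts per gene, the authors' DESeq2-normalised counts (a signal scaled by size factors, used here only with FPKM) and FPKM values per library. From the deposited FPKM and normalised counts only the relative gene length was taken, as their ratio. All tests used the deposited read counts.

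Genes with enough counts (filterByExpr, 11561 of 17337) entered a quasi-likelihood fit in edgeR (version 4.0.16, under R 4.3.3), with TMM scaling, a block for animal and a term for chamber. Alternatives were library series as a covariate, DESeq2 1.42.0, other scaling and filters, a smooth length offset per library (lowess span 0.5) and leaving out each animal. SEs were derived from the F statistic, and p-values were adjusted over all genes tested (Benjamini-Hochberg). Differences per animal are log2 CPM with a prior count of 2. Spt and RV came from the same animal, so the block is the design's. Deviations of the 2 libraries of an animal from their chamber means correlated between -0.448 (Sham-H replicate 5) and 0.574 over genes. In only 3 of the 11 animals did the RV library correlate best with the Spt library of its own animal. Scripts were tested on simulated data. Named genes were the 15 largest differences in each direction among genes called, of the same sign in all 11 animals, of the same sign at an unadjusted p below 0.05 with library series, and averaging 1 CPM or more where they were higher, passing over uncharacterised symbols, and any gene of the lists. The animals, lists and rules were chosen with earlier results of these data known. The 6 banded animals, and the test of banded against sham animals, were added after seeing the data. A few items are not reported here, although the counts include them.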

Additional observations from a re-analysis of the deposited data

Results flagged for a closer look

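Among the 30 named genes, the per-animal Spt minus RV differences were searched for a single far value in the 6 younger and in the 5 older shams. By Dixon's test 6 of 60 groups (10%) held one, where chance gives about 1 in 20. In Sham-H replicate 1 the log2 difference was 2.18 for Irx2 and 1.47 for Penk, where the next lowest of the 6 younger animals were at 3.26 and 3.04. The RV of that animal had the highest Penk and Nppb levels of all RV libraries. In Sham-LF replicate 1 the log2 difference of Cilp was 2.3, above the other 4 older animals, and that of Gpc3 was -0.0777, where the next of the older animals was at -1.66. This is also the animal in which Msln and Upk1b were not higher in RV, and the one whose RV label names 2 sham series. The log2 difference of Slc9a3 was 0.449 in Sham-RF replicate 2, below the other 4 older animals at 1.02 or more, and that of Prr15 was -2.32 in Sham-H replicate 2, where the next was at -1.32.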

How the results depend on the processing

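The 1114 calls fell to 17 with library series beside the replicate block, to 150 in a fit of 30 animals with library series (133 of them called with the same sign in the paired fit), to 23 in the 6 younger shams and to 0 in the 2 animals with both libraries in 1 series (edgeR, 152 at an unadjusted p below 0.05), and numbered 537 in the 6 banded animals. Without the replicate block there were 895. Leaving out 1 animal at a time gave 741 to 3200 calls, the highest without Sham-H replicate 5 and the lowest without Sham-LF replicate 3, and 4 to 35 calls with library series, the lowest without Sham-H replicate 7 and the highest without Sham-LF replicate 1, where every animal left out moved the count by over 1.5 times. DESeq2 with library series called 85. The other scalings, filters and DESeq2 without library series gave 982 to 1546 calls, and including Sham-H replicate 6 gave 760. The median of all genes moved by less than 0.01 log2 between scalings. The naming rule required 1 sign in all 11 animals and with library series, so signs of the 30 named genes could hardly turn in refits of these animals. In the banded animals, which the rule did not use, all 30 had the sham sign. The genes missed the threshold in 94 of 741 refits: 30 in the 2 animals of 1 series, 22 with library series, 19 in the younger shams, 11 in the fit of 30 animals, 10 in the banded animals and 2 in the older shams. Depth limits the genes below 1 CPM, whose log2 differences depend on the prior count.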
